A study of Mus musculus with 16 samples.

Results

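Proximal tubule transporters and enzymes are 43 genes whose products mark the first part of the nephron, where most of the filtered sodium, glucose, amino acids, phosphate and organic acids are taken back. They were chosen by name, as a list of known proximal tubule genes, and each name matched 1 row of the 28971 genes in the count table. Whole-kidney RNA of 3 libraries named as mutant and 4 named as wild type was compared. The mutants, called Hes1 cKO, carried Pax8-rtTA, TRE-Cre and Hes1 f/f, and the wild type littermates are called control. Pax8 drives the doxycycline-dependent activator in the tubule epithelium of the whole nephron and collecting duct, so Hes1, a transcriptional repressor that acts below Notch receptors, can be deleted in the proximal tubule as well. All mice received doxycycline at 1 mg/mL with 5% sucrose in drinking water for 1 week from 3 weeks of age. The labels list male and female mice, but the names of the 7 columns carry no sex and match no single titled sample, so the numbers 1 to 3 and 1 to 4 only name columns. Nothing in the labels ties a column to its own mouse, so p-values measure only the spread between these libraries.

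The proximal tubule runs from the convoluted S1 and S2 segments to the straight S3 segment. The early segments use high-capacity carriers such as the sodium-glucose carrier Slc5a2 and the phosphate carrier Slc34a1, while S3 recovers what is left with high-affinity carriers such as Slc5a1. Lrp2 and Cubn form the endocytic receptor of the brush border, Slc22 and Abcc transporters secrete organic ions and drugs, and Hnf4a is a transcription factor of the mature tubule cell. In the mouse kidney, Kap, Cyp2e1, Cyp4b1, Slc7a13 and Slc22a30 are known as genes with higher levels in males, and Slc22a7 as one with higher levels in females. Of the 43 genes, 11 were described as early (S1, S2), 11 as late (S3), and 21 as expressed along the whole tubule or not assigned.

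Promoter sequence was available for 35 of the 43 genes from RefSeq (GRCm38.p6), and the 250 bases before each start were searched on both strands for 2 exact motifs of liver and kidney factors. CAAAGTCCA, a motif of HNF4 factors, was found in 1 of the 35 (2.86%), against 0.451% of 27025 genes. GTTAATNAT, a motif of HNF1 factors, was found in 0 of the 35, against 0.866% of all genes. The only match lay before Slc3a1, the heavy chain of the cystine carrier, and begins 39 bases before the start. It is shown first, with the motif in capitals, followed by the upstream sequence of Gatm and of Glyat, a pair of genes that passed the test with Xist as covariate below. Slc3a1 is at chr17:85028268-85028346 on the plus strand, Gatm at chr2:122611278-122611527 on the minus strand, and Glyat at chr19:12633058-12633307 on the plus strand.
Slc3a1: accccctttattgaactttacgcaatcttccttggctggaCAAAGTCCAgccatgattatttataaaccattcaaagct
Gatm: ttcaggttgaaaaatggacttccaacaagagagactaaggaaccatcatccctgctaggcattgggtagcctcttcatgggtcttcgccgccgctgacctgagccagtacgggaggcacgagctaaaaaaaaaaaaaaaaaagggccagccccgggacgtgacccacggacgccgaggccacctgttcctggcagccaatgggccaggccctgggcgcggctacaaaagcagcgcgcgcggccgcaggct
Glyat: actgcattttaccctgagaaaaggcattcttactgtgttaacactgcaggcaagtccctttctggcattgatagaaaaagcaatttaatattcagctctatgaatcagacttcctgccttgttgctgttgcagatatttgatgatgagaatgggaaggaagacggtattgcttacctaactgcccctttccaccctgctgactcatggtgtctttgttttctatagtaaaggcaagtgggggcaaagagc
The Gatm window was 59.2% G and C with 17 CpG sites, and the Glyat window 42.8% with 1 CpG site. Over the 45 windows of the 35 genes the medians were 50.8% and 4 CpG sites, near those of all 32851 windows (52.4% and 6).

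Total counts were 16973931 to 20420422 per library. Hes1 was lower in each Hes1 cKO library (17.2 to 19.8 CPM, read counts scaled to a common library size) than in each control library (42.8 to 67.6 CPM), with a log2 fold change of -1.61 and an adjusted p of 0.00357 (edgeR). Xist, the transcript of the inactive X chromosome, stood at 342 CPM in Hes1 cKO 3, 333 CPM in control 3 and 367 CPM in control 4, and at 0.371 CPM or less in the other 4 libraries. The 6 adrenal cortex markers, used as a check for neighbouring tissue, summed to 1067 CPM in Hes1 cKO 3, 796 CPM in control 1, 205 CPM in control 2 and 50.7 CPM in Hes1 cKO 1, and to 2.62 to 4.20 CPM in the other 3. The 11 intercalated cell markers summed to 1531 to 1647 CPM in the mutant libraries, against 561 to 738 CPM in the controls. In edgeR 9 of the 11 rose, while 0.339% of all tested genes passed in either direction. Of the 7 principal cell markers 6 were tested, all 6 were lower and 1 fell. Among markers of other cells, 4 of 6 for thick ascending limb, 4 of 5 for distal convoluted tubule and 5 of 6 for endothelium were lower. So were 3 of 6 for stroma and 3 of 4 tested for immune cells, with 0 past the test in each list. The 8 markers of injured tubule summed to 577 to 878 CPM in the mutant libraries, against 835 to 1566 CPM in the controls, with 0 of 8 past the test. Of these 8, 4 were higher and 4 lower. Control 3 alone stood at 1566 CPM and the other controls at 835 to 883 CPM, so the groups overlapped.

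Most of the proximal tubule genes were abundant in every library, and most had a slightly lower mean in Hes1 cKO without passing the test gene by gene. Slc22a30 was as low as 3.47 CPM (Hes1 cKO 3) and Acsm3 as low as 3.62 CPM (control 3). All 43 genes passed the filter on low counts, 37 were lower and 6 higher, and the median log2 fold change was -0.16, against -0.0064 over all 15615 tested genes. In edgeR's quasi-likelihood test 0 of the 43 passed at an adjusted p under 0.05, against 53 genes (0.339%) of all tested, 50 higher and 3 lower. At an unadjusted p under 0.05, 5 of the 43 were lower, against 2.61% of all tested genes lower and 3.34% higher, and 0 of the 43 were higher. DESeq2 called 2 of the 43, Gatm (adjusted p 0.00174) and Abcc2 (adjusted p 0.0497), both lower, against 0.849% of all genes it tested. Over all genes it called 96 higher and 34 lower. Of the 43 log2 fold changes, 40 lay within 0.5 of zero in either direction, and the range was -0.66 to 0.21. The RNA is from whole kidney, so fewer proximal tubule cells and less RNA per cell cannot be told apart. The 7 markers that define the proximal tubule are all among the 43, so their sum is no separate measure of tubule cells. They summed to 10590 to 11624 CPM in the mutant libraries, against 11505 to 13834 CPM in the controls, groups that overlap. Control 1 stood highest in both this sum and the share of all counts taken by the 43 genes, which was 3.799% there and 2.67% to 3.03% in the other 6 libraries. It also held adrenal markers (796 CPM), and with their sum as covariate in the edgeR fit 32 of the 43 were lower and 11 higher, at a median of -0.13. Without control 1, 29 of the 43 were lower and 14 higher, with a median of -0.07.

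The early (S1, S2) genes were all lower in Hes1 cKO, 11 of 11, and their median log2 fold change was -0.21. Gatm, the mitochondrial enzyme that makes the precursor of creatine, had the lowest unadjusted p of the 43. Read counts gave 395, 367 and 551 CPM in libraries 1, 2 and 3 of Hes1 cKO, and 651, 624, 755 and 726 CPM in libraries 1, 2, 3 and 4 of control. Every Hes1 cKO library lay below every control library, with means of 438 ± 99.3 (SD, n = 3) and 689 ± 61.9 (SD, n = 4). The log2 fold change was -0.65 (SE 0.15), with an adjusted p of 0.232 in edgeR and an exact two-sided permutation p of 0.0286, the smallest that 35 splits allow. Gatm passed the edgeR test when Hes1 cKO 3 was left out (log2 fold change -0.85, adjusted p 0.0346). With any other single library left out it did not pass. The adjusted p in edgeR then ran from 0.287 (without control 2) to 0.869 (without Hes1 cKO 2). Slc7a8, the basolateral exchanger of neutral amino acids, was measured at 273, 262 and 325 CPM in the mutant libraries, against 397, 330, 418 and 366 CPM in the controls. Those groups did not overlap, although Hes1 cKO 3 and control 2 were close (log2 fold change -0.40, SE 0.11, adjusted p 0.512 in edgeR). Slc2a2, the basolateral exit path of glucose, was nearly the same in the 3 Hes1 cKO libraries, at 196, 189 and 196 CPM, and read 215, 288, 253 and 241 CPM in control (log2 fold change -0.36, SE 0.10, adjusted p 0.520 in edgeR).

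The carriers that take up phosphate, glucose and neutral amino acids at the early brush border overlapped between the groups. Slc34a1, the main phosphate carrier, was at 3739, 3836 and 4108 CPM in the mutant libraries, against 5454, 3839, 4339 and 4339 CPM in the controls. Control 1 was alone above the rest, and control 2 was level with Hes1 cKO 2 (log2 fold change -0.21, SE 0.13). Slc5a2, the high-capacity glucose carrier, gave 381, 506 and 599 CPM in the mutant libraries, against 557, 515, 561 and 567 CPM in the controls. Here the 4 control libraries were close together and the Hes1 cKO libraries held both the lowest and the highest value. Slc6a19, the apical neutral amino acid carrier, had 178, 258 and 297 CPM in the mutant libraries, against 242, 243, 271 and 286 CPM in the controls, with Hes1 cKO 1 the lowest and Hes1 cKO 3 the highest (log2 fold change -0.09, SE 0.16). The same 2 libraries were the lowest and the highest for Slc34a3, a second phosphate carrier, which ranged from 43.9 to 86.2 CPM. Slc5a12, a lactate carrier, ranged from 158 CPM in Hes1 cKO 1 to 362 CPM in control 2, and Slc7a7, the light chain of a basolateral exchanger of cationic amino acids, from 270 CPM in Hes1 cKO 2 to 342 CPM in control 1.

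Among the early organic anion exchangers, Slc22a6 (Oat1) and Slc22a8 (Oat3) are neighbours on chromosome 19, with 6.16 kb between them in GRCm38.p6, and the high-Xist libraries stood on opposite sides for them. Slc22a6 was measured at 767, 858 and 571 CPM in the mutant libraries, against 1252, 867, 545 and 625 CPM in the controls. Slc22a8 was measured at 280, 308 and 493 CPM in the mutant libraries, against 340, 324, 417 and 515 CPM in the controls. The 3 libraries with high Xist had the lowest Slc22a6 levels and the highest Slc22a8 levels, and the groups overlapped for both genes (log2 fold changes -0.17, SE 0.27, and -0.15, SE 0.22).

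Of the late (S3) genes 10 of 11 were lower, their median log2 fold change was -0.13, and 0 of the 11 were at an unadjusted p under 0.05. The spread within the groups was wide for some of these genes. In control the median coefficient of variation was 27.3% for late genes, 10.04% for early genes and 12.7% for the unassigned genes. It was 9.10% over the 5564 tested genes with a control mean at least that of Slc22a30, the lowest of the 43. A coefficient over 50% was found for 7 of the 43, and 5 of those are late genes. They are Slc22a7, Slc22a30, Slc7a13, Cyp2e1 and Cyp4b1, the late genes named above with levels that differ between males and females. The remaining late genes lay between 3.55% (Slc6a18) and 27.3% (Napsa), and the early genes between 4.31% (Slc5a2) and 38.6% (Slc22a6). The control group holds libraries with high and with low Xist. Slc7a13, a carrier of aspartate, glutamate and cystine in S3, was at 256, 198 and 14.2 CPM in Hes1 cKO and 404, 330, 24.1 and 25.7 CPM in control. The 4 libraries with low Xist had at least 7.70 times the level of any library with high Xist, and within each of these 2 sets every Hes1 cKO library was below every control library. Slc22a30, an organic anion carrier, had 44.1, 37.4 and 3.47 CPM in Hes1 cKO and 91.5, 42.0, 7.13 and 6.66 CPM in control, with a gap of 5.24 times between the sets. Slc22a30 lies among close copies, and reads could be split between them in counting. Log2 fold changes without a covariate were -0.33 (SE 1.1) for Slc7a13 and -0.37 (SE 0.96) for Slc22a30, so the standard error exceeded the difference.

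**Figure D1:**
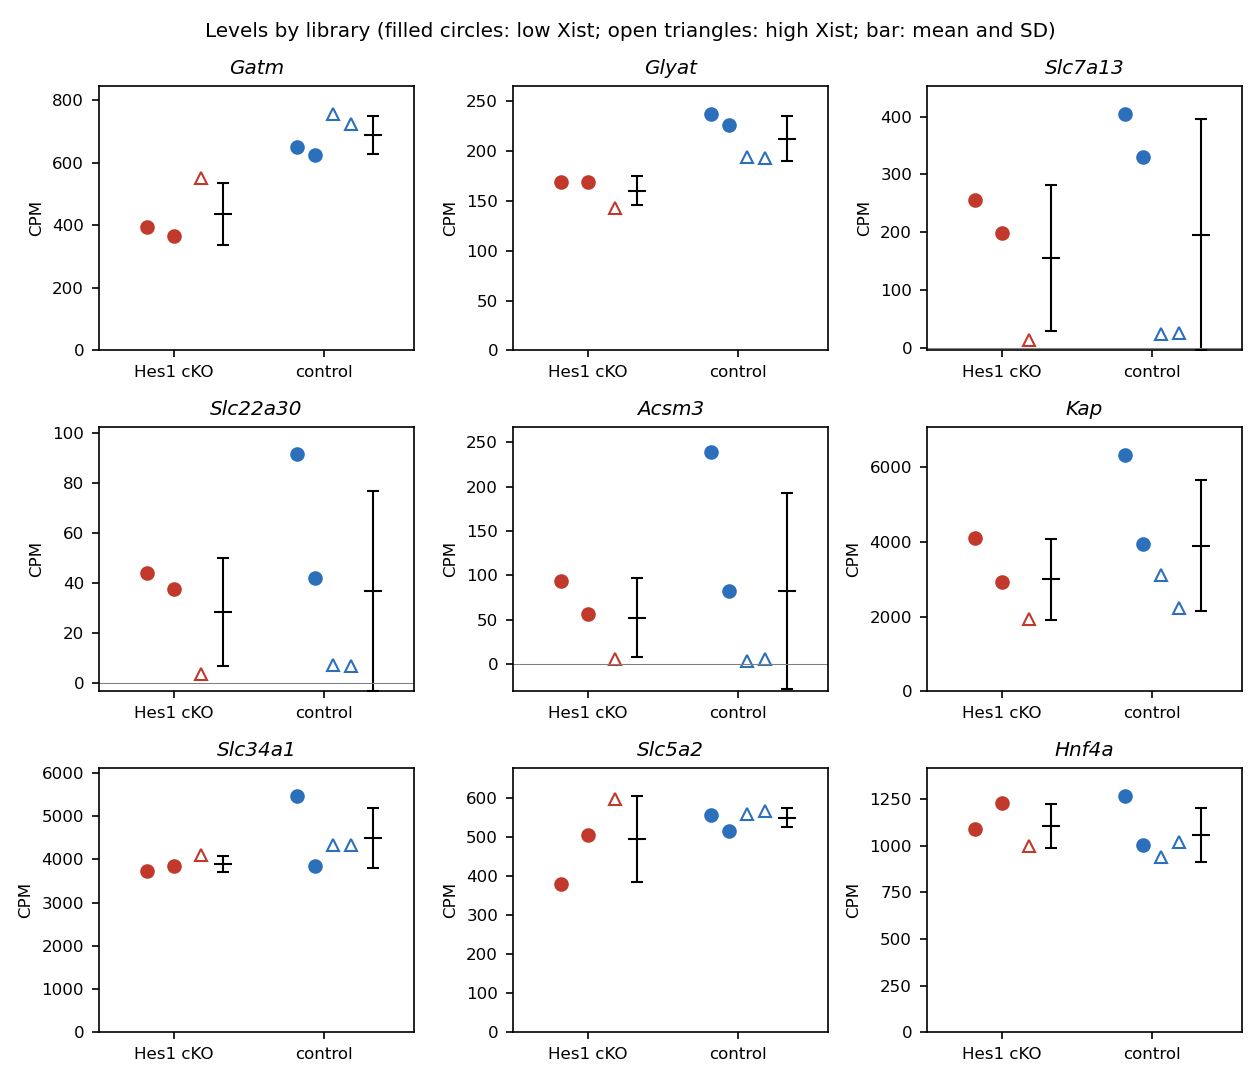
Level of 9 genes in CPM (vertical axes, linear) for the 3 Hes1 cKO (red) and 4 control (blue) libraries. Filled circles are libraries with low Xist, open triangles libraries with high Xist, and the black bars give the mean and SD of the group. The groups do not overlap for Gatm and Glyat, while Slc7a13, Slc22a30 and Acsm3 sit near the axis in the 3 libraries with high Xist.

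Cyp2e1, a cytochrome that oxidizes ethanol and small solvents, read 285, 375 and 127 CPM in Hes1 cKO and 674, 315, 86.2 and 107 CPM in control. Control 1 was the highest, and the 3 libraries with high Xist were the lowest (log2 fold change -0.17, SE 0.66). Cyp4b1, another cytochrome, ranged from 390 CPM in control 4 to 1235 CPM in control 1, again with the 3 high-Xist libraries lowest. Slc22a7 (Oat2) did not follow that order, with 64.2, 25.2 and 43.8 CPM in Hes1 cKO and 133, 36.1, 53.1 and 21.5 CPM in control. Its log2 fold change was -0.45 (SE 0.55) with control 1 and turned to 0.27 without it.

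The S3 carriers without a wide spread differed little between the groups. Slc5a1, the high-affinity glucose carrier, was measured at 162, 126 and 159 CPM in the mutant libraries, against 139, 147, 169 and 167 CPM in the controls (log2 fold change -0.06, SE 0.11). Slc6a18, a neutral amino acid carrier whose gene lies 1.72 kb from Slc6a19, gave 692, 761 and 904 CPM in the mutant libraries, against 811, 772, 841 and 816 CPM in the controls (log2 fold change -0.04, SE 0.10). Napsa, an aspartic protease, was the one late gene not lower in Hes1 cKO. It stood at 1526, 1579 and 2036 CPM there, against 1425, 1193, 2212 and 1907 CPM in the controls, highest in the 3 libraries with high Xist (log2 fold change 0.02, SE 0.21). Slc3a1 ranged from 370 to 462 CPM over the 7 libraries, Slc1a1, a glutamate carrier, from 144 to 179 CPM, and Slc5a8, a carrier of lactate and short-chain fatty acids, from 210 to 373 CPM.

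Of the 21 genes along the whole tubule or not assigned, 16 were lower and 5 higher, their median log2 fold change was -0.15, and 2 were at an unadjusted p under 0.05. Abcc2, an apical pump for conjugated organic anions, was at 235, 271 and 237 CPM in the mutant libraries, against 315, 481, 307 and 350 CPM in the controls. Its groups did not overlap, and control 2 was the highest library (log2 fold change -0.55, SE 0.16, adjusted p 0.512 in edgeR, exact two-sided permutation p 0.0286). Glyat, a mitochondrial enzyme that joins glycine to benzoate, had 169, 169 and 143 CPM in the mutant libraries, against 237, 226, 195 and 193 CPM in the controls. Every Hes1 cKO library was below every control library, and in both groups the high-Xist libraries were the lower ones (log2 fold change -0.41, SE 0.11, adjusted p 0.446 in edgeR). Together with Gatm, Slc7a8 and Slc2a2, these make 5 of the 43 genes whose groups did not overlap, all 5 lower in Hes1 cKO, against 7.01% of all tested genes in either direction. The exact permutation p, not adjusted over genes, was 0.0286 for Gatm, Abcc2 and Glyat and 0.0571 for Slc7a8 and Slc2a2. For the other genes given in every library it was 0.114 (Lrp2) or more.

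Lrp2 (megalin), the large endocytic receptor, had 1568, 1622 and 1823 CPM in the mutant libraries, against 1997, 1775, 1851 and 2099 CPM in the controls, and the groups overlapped at Hes1 cKO 3 and control 2 (log2 fold change -0.21, SE 0.10). Its partner Cubn ranged from 305 to 397 CPM. Kap, an androgen-regulated protein of the mouse tubule, was at 4122, 2943 and 1947 CPM in the mutant libraries, against 6325, 3938, 3126 and 2236 CPM in the controls. Control 1 was highest and Hes1 cKO 3 lowest (log2 fold change -0.38, SE 0.35). Hnf4a was at 1090, 1228 and 995 CPM in the mutant libraries, against 1264, 1005, 941 and 1017 CPM in the controls, with overlapping groups (log2 fold change 0.06, SE 0.12). Slc27a2, which activates and imports very long chain fatty acids, had 3023, 3705 and 2812 CPM in the mutant libraries, against 2913, 3324, 2572 and 2557 CPM in the controls (log2 fold change 0.16, SE 0.14). Abcc4, an apical pump for cyclic nucleotides and organic anions, had the highest log2 fold change of the 43, 0.21 (SE 0.23). It read 62.4, 95.4 and 98.0 CPM in Hes1 cKO and 44.9, 85.8, 77.2 and 87.9 CPM in control, with control 1 the lowest.

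Acsm3, a mitochondrial enzyme that activates medium-chain fatty acids, had the widest range of the 43, 65.8 times from the lowest to the highest library. It was at 94.2, 57.1 and 5.47 CPM in Hes1 cKO and 238, 82.4, 3.62 and 5.46 CPM in control (log2 fold change -0.66, SE 1.3). Acsm2, its neighbour at 160 kb on chromosome 7 and one of a family of close copies, ranged from 1107 to 3952 CPM with the 3 high-Xist libraries lowest. Slc5a10, a carrier of mannose and fructose, had the narrowest range, 1.09 times, at 469 to 510 CPM. The remaining unassigned genes had log2 fold changes from -0.41 (Slc17a3, a urate and organic anion carrier) to 0.10 (Slc13a3, a carrier of dicarboxylates). Between these lay Slc22a2 and Slc47a1, which secrete organic cations, the urate carrier Slc22a12, the phosphate and urate carrier Slc17a1, the sulfate carrier Slc13a1, the sodium-proton exchanger Slc9a3, the cystine carrier Slc7a9 and Miox, which breaks down inositol. For Miox, control 2 (832 CPM) was far below the other 3 control libraries (1264 to 1318 CPM).

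**Figure D2:**
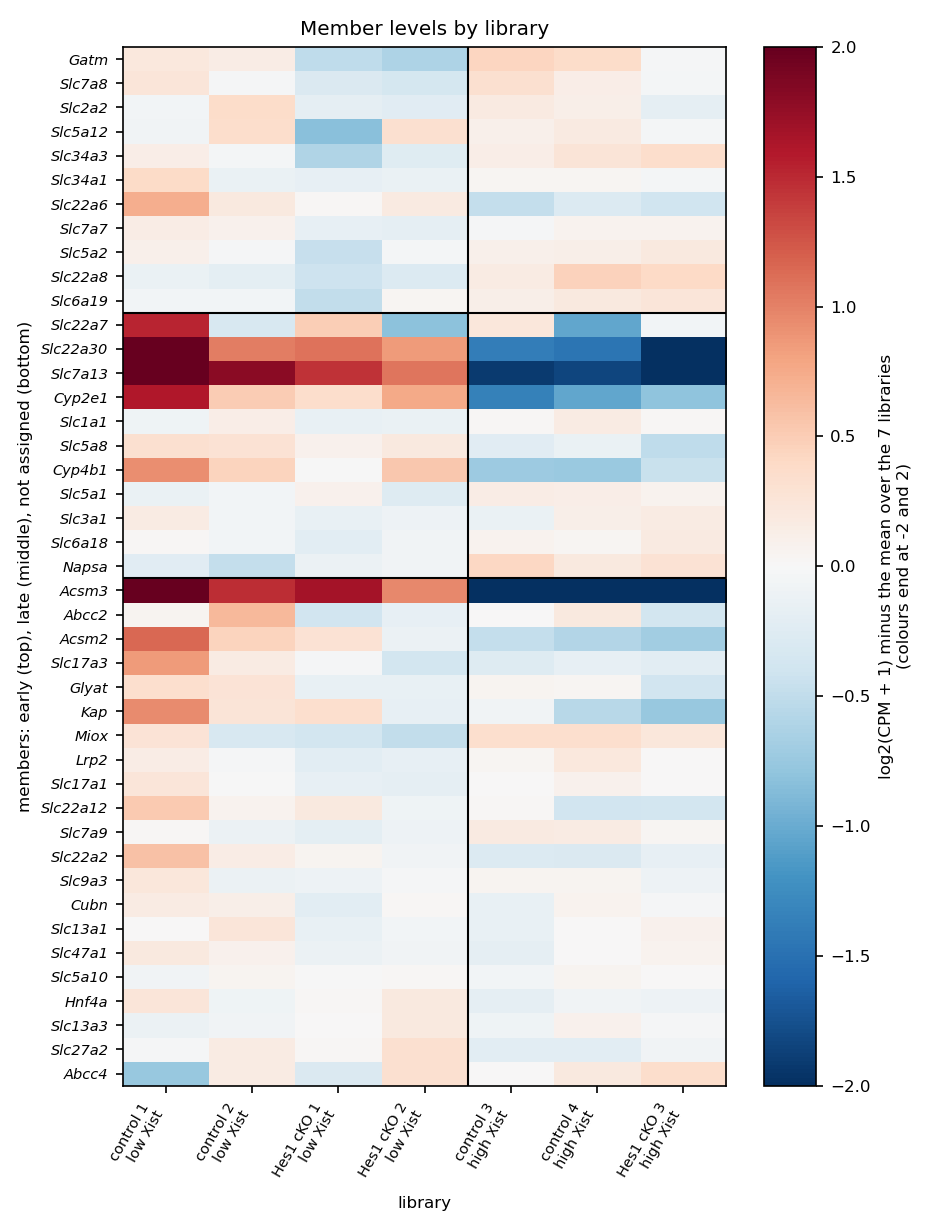
Deviation of log2(CPM + 1) from the mean over the 7 libraries (colour) for each of the 43 genes (rows, by class and then by log2 fold change) in each library (columns, low Xist on the left and high Xist on the right). Acsm3, Slc7a13 and Slc22a30 change colour between the 2 column blocks, and control 1 is red in most late and unassigned rows.

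Because Xist divided the libraries of both groups, its level was also used as a covariate in the edgeR fit. The standard error became smaller for 33 of the 43 genes, a count that was not made over all tested genes. With the covariate 3 of the 43 fell in Hes1 cKO, against 66 genes (0.423%) of all tested in either direction. Of those 66 genes, 59 were higher and 7 lower. Slc7a13 had a log2 fold change of -0.74 (SE 0.10, adjusted p 0.0179), Gatm of -0.61 (SE 0.096, adjusted p 0.0335) and Glyat of -0.45 (SE 0.072, adjusted p 0.0368). At an unadjusted p under 0.05, 11 of the 43 were lower, against 3.32% of all tested genes. The 3 calls are 1 early, 1 late and 1 unassigned gene, and DESeq2, run without the covariate, called Gatm and not the other 2. When each library was left out in turn with the covariate kept, Slc7a13 passed without Hes1 cKO 1, control 2 or control 3 and missed the threshold without the other 4, with log2 fold changes from -0.85 to -0.67. Gatm passed only without Hes1 cKO 3, and Glyat in none of the 7 fits (adjusted p 0.0526 to 0.236), while their log2 fold changes stayed between -0.75 and -0.55 and between -0.46 and -0.43. Slc22a30 passed without control 2 (log2 fold change -1.06, adjusted p 0.00837). With the adrenal marker sum as covariate instead, 0 of the 43 passed, Gatm was at -0.67 (adjusted p 0.287) and Slc7a13 at 0.82 (adjusted p 0.990).

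**Figure D3:**
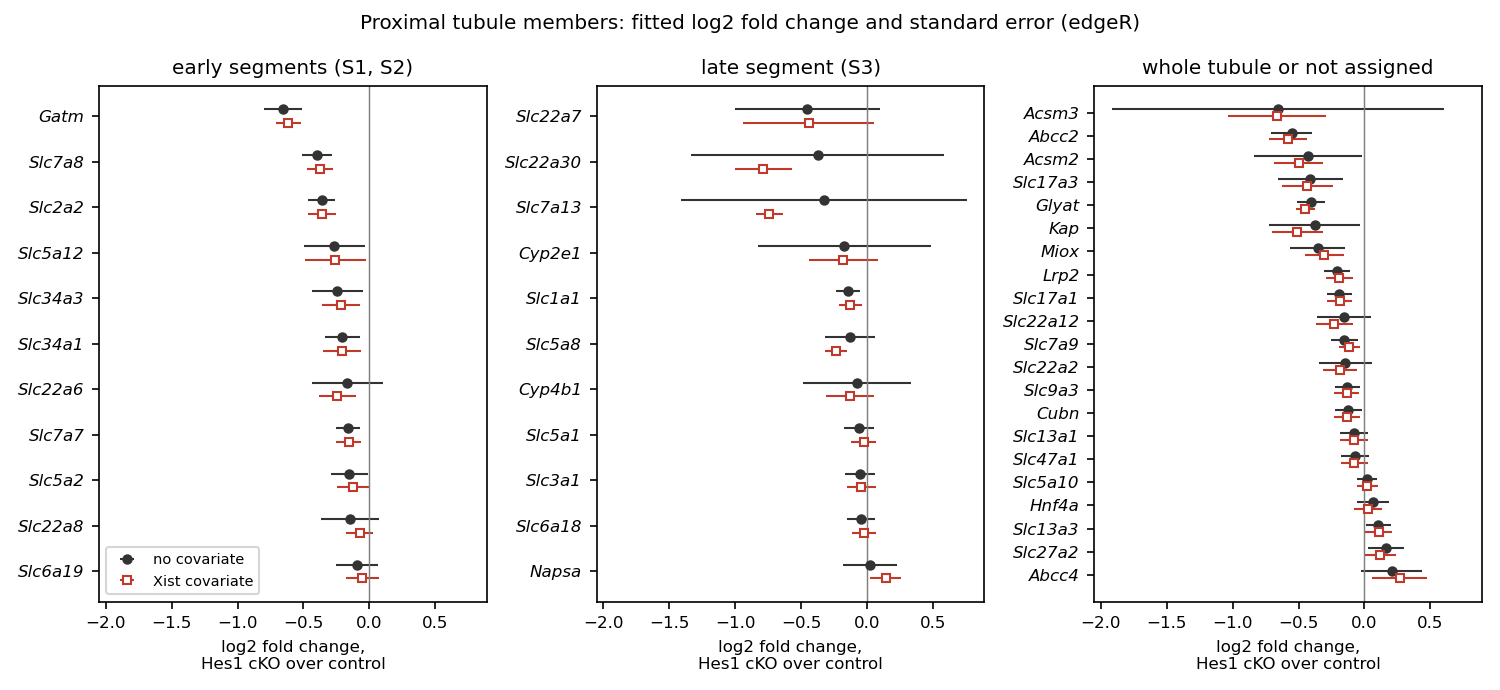
Log2 fold change of Hes1 cKO over control (horizontal axis, linear in log2) with its standard error from edgeR, for the early, late and unassigned genes in 3 panels. Black circles are fits without a covariate and open red squares fits with Xist as covariate. For Slc7a13, the bar shrinks from 1.1 to 0.10, and most points lie left of zero.

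The order of the libraries by Xist was described further, with the split drawn after the values had been seen. Levels in the 3 libraries with high Xist did not overlap those in the other 4 for 16 of the 43 genes, against 11.9% of all tested genes. In the high-Xist libraries 10 of these were lower and 6 higher. The 10 lower genes were Slc22a6, Slc5a8, Slc7a13, Slc22a30, Cyp2e1, Cyp4b1, Slc22a2, Slc27a2, Acsm2 and Acsm3, and the 6 higher were Slc5a2, Slc6a19, Slc22a8, Slc6a18, Napsa and Slc7a9. By class they were 4 of 11 early, 7 of 11 late and 5 of 21 unassigned genes. The gap between the sets reached 10.4 times for Acsm3 but was narrow for others. It was 1.01 times for Slc5a2 and Slc6a18, 1.02 for Slc7a9, 1.04 for Slc27a2 and 1.06 for Slc22a2. Inside both Xist sets, every Hes1 cKO library was below every control library for 13 of the 43 genes, against 6.58% of all tested genes. The reverse order was found for 0 of the 43, against 6.90% of all tested genes. The 13 were Slc34a1, Slc2a2, Slc7a8 and Gatm of the early genes, Slc5a8, Slc7a13 and Slc1a1 of the late genes, and Lrp2, Slc17a1, Abcc2, Miox, Glyat and Acsm2 of the others. Some of the 13 rest on near ties. Slc34a1 stood at 3836 CPM in Hes1 cKO 2 and 3839 CPM in control 2. In Hes1 cKO 3 and control 3, Slc1a1 stood at 162.15 and 162.18 CPM, and Slc17a1 at 313.7 and 314.3 CPM. Among the high-Xist libraries, Hes1 cKO 3 was the only mutant library. The adrenal markers summed to 1067 CPM there, and to 3.13 and 4.20 CPM in controls 3 and 4. Among the low-Xist libraries they summed to 796 and 205 CPM in controls 1 and 2. In Hes1 cKO 1 and 2 they summed to 50.7 and 2.62 CPM. The adrenal markers thus also separated the groups inside each Xist set, and their part in the order of the 13 genes was not tested.

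Levels were compared between genes per kb of exon, using GENCODE M21 exon lengths. Kap was the highest in control at 5525 CPM per kb, followed by Slc34a1 (961), Slc27a2 (757), Miox (716) and Napsa (633). The lowest were Slc1a1 (20.1), Slc13a1 (19.7), Acsm3 (16.7), Abcc4 (11.6) and Slc22a30 (10.9). Slc22a30 still stood at percentile 71.0 of the genes compared in control.

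**Figure D4:**
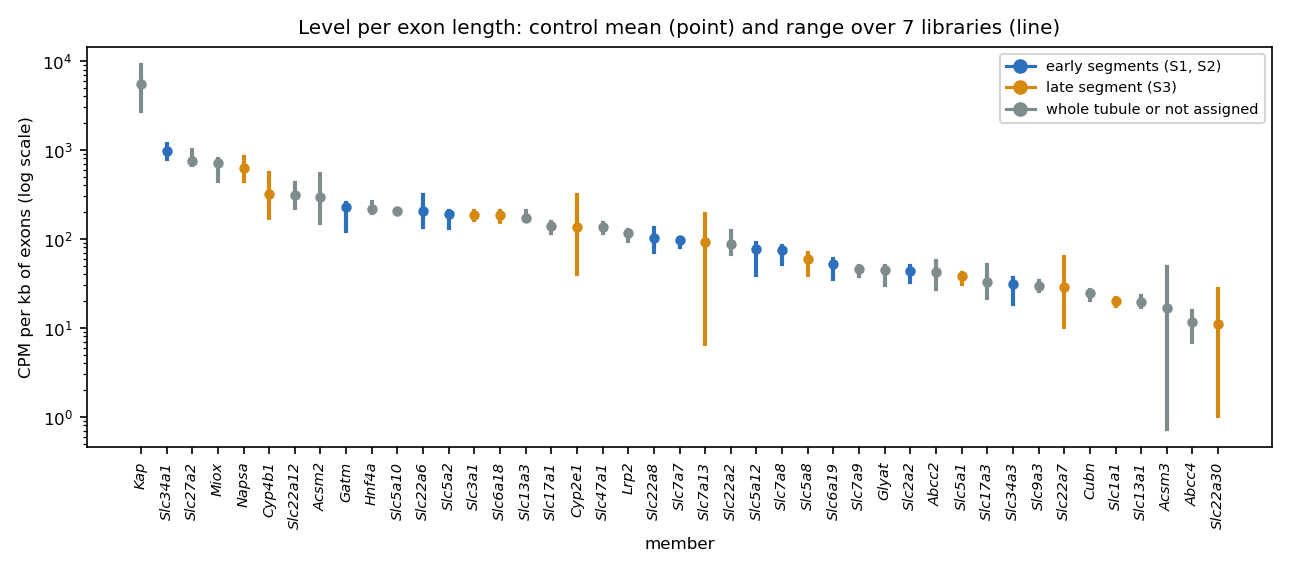
Level of each of the 43 genes in CPM per kb of exon (vertical axis, log scale), in falling order of the control mean (points), with lines from the lowest to the highest of the 7 libraries. Blue marks early, orange late and grey unassigned genes. The long lines belong to Acsm3, Slc7a13 and Slc22a30.

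A wider list of 77 other proximal tubule genes, of which 76 were tested, was counted in the same 7 libraries, so it is no separate sample. Counts without control 1 are not given for this list. Of the 76, 60 were lower and 16 higher, against 51.6% lower over all tested genes, and their median log2 fold change was -0.12. At an unadjusted p under 0.05 in edgeR, 9 were lower and 0 higher, against 2.61% and 3.34% of all tested genes. In the same test 0 of the 76 passed at an adjusted p under 0.05 (0.339% of all genes). DESeq2 and the fit with the Xist covariate also called 0 of the 76. The lowest log2 fold changes were those of Slco1a1, an organic anion carrier (-1.87, SE 1.6), and Ugt2b37, a glucuronosyltransferase (-1.45, SE 1.4). Slco1a1 read 8.04, 10.1 and 0.118 CPM in Hes1 cKO and 75.4, 14.5, 0.110 and 0 CPM in control, so control 1 was highest and the 3 high-Xist libraries were at or near zero. The highest were Slc16a9, a monocarboxylate carrier (0.36, SE 0.21), and Pck1, the rate-limiting enzyme of gluconeogenesis (0.29, SE 0.16).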

How the data were processed

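Total RNA of whole mouse kidneys was sequenced as 150 bp pairs, per the labels' protocols. The authors deposited 2 tables of read counts per gene, whole numbers without normalization. FastQC, STAR and DESeq2 and the builds mm10 and GRCm38 are named in the submitters' processing notes, without a version. No source used here gives the strand setting, so overlapping and antisense genes cannot be told apart. The table with genotype in its column names was used (3 Hes1 cKO, 4 control), and 9 columns of per-sample values in the other table, which show no genotype, were not used. Sample titles (7 Hes1 cKO, 9 control) and series text swap the group sizes, and the titles were followed.

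Genes were kept by filterByExpr (minimum count 10), which left 15615, and compared by edgeR 4.0.16 (R 4.3.3) with TMM scaling, the quasi-likelihood test and Benjamini-Hochberg adjustment over all tested genes. A gene was called, or passed, at an adjusted p under 0.05. CPM values are counts scaled to the TMM library size, and standard errors derive from the F statistic. Exact two-sided permutation tests used log2(CPM + 1) and all 35 splits, without adjustment over genes. Alternatives were DESeq2 1.42.0, its size factors, total counts, other filters, limma-voom (limma 3.58.1), Xist as covariate and leaving out each library. An adrenal covariate and the Xist covariate with each library left out were added after seeing the data. The code was tested on simulated data with 200 changed genes.

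Genes given in every library were 11 chosen by name, those called or at an unadjusted p under 0.05, and the 2 highest and 2 lowest log2 fold changes of each class. The members, classes and lists were chosen with earlier results of these data known.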

Additional observations from a re-analysis of the deposited data

Results flagged for a closer look

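The level of 1 gene was set apart within a group. For Miox, control 2 was the lowest of the 4 control libraries, and its distance to the next library was 0.889 of the range of the group, past Dixon's limit at 95%. The control libraries were at 1264, 832, 1318 and 1317 CPM. Of 43 control groups, 1 passed this limit, and chance gives about 1 in 20. The Hes1 cKO group of 3 was not tested.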

How the results depend on the processing

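Over all genes, 53 passed in edgeR, 130 in DESeq2, 102 without a filter on low counts, 25 (without Hes1 cKO 2) to 47 with each library left out (27 without Hes1 cKO 1), and 35 (without control 4) to 67 with the Xist covariate as well. Of the 43, 0 passed in edgeR, 3 with the Xist covariate, 2 in DESeq2, 1 (Gatm, adjusted p 0.0153) without the filter, 0 to 1 with each library left out and 0 to 2 with the covariate as well. The median of the 43, -0.16, ran from -0.22 (without control 3) to -0.065 (without control 1), and with the covariate from -0.29 (without Hes1 cKO 3) to -0.08 (without control 1). Scaling by DESeq2 size factors or total counts, a mean CPM filter and limma-voom left 0 of the 43 called. Of the 23 genes given in every library, 13 changed sign in at least 1 setting, none of them called in that setting, and the cause was not tested. With limma-voom, Acsm3 was at 0.37 and Cyp2e1 at 0.18, and with the adrenal covariate Acsm3 was at 1.22, Slc7a13 at 0.82, Slc22a30 at 0.48 and Cyp2e1 at 0.33. With each library left out, log2 fold changes ran from -1.40 to 0.78 for Acsm3, -0.89 to 0.30 for Slc7a13, -0.84 to 0.61 for Slc22a30, -0.82 to 0.27 for Slc22a7, -0.52 to 0.63 for Cyp2e1, -0.44 to 0.0012 for Slc22a8, -0.32 to 0.11 for Slc22a6, -0.31 to 0.0042 for Slc5a2, -0.26 to 0.090 for Slc6a19, -0.16 to 0.037 for Slc6a18, -0.13 to 0.04 for Slc5a1, -0.12 to 0.18 for Napsa and -0.02 to 0.16 for Hnf4a. With the covariate as well they ran from -0.94 to 0.26 for Slc22a7, -0.58 to 0.21 for Cyp2e1, -0.28 to 0.00043 for Slc5a2, -0.17 to 0.09 for Slc6a19, -0.13 to 0.03 for Slc6a18, -0.13 to 0.052 for Slc5a1 -1.06 to -0.47 for Slc22a30, -0.39 to -0.07 for Slc22a6, 0.05 to 0.24 for Napsa and -0.047 to 0.11 for Hnf4a. No paired analysis was possible because the columns carry no replicate number of the sample titles. Xist and the adrenal markers divide libraries within both groups, and with 3 against 4 libraries small changes can be missed.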
